A study of Homo sapiens with 15 samples.

Results

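Biosensor cells transfected with PS19 brain lysate were compared with the same cells transfected with control brain lysate, to ask which mRNAs differ when tau aggregation is seeded from a tauopathy brain. The comparison took every library whose label names one of these lysates, 5 PS19 and 5 control libraries out of 15 in the series. It covered the 11786 of 18338 genes whose mean over these 10 libraries was at least 1 FPKM, a unit that scales the fragments of a gene for its length and for the size of the library. Biosensor cells are a HEK293 (human embryonic kidney) line that stably expresses TauRD(P301S)-YFP, the repeat domain of human tau with a disease mutation joined to yellow fluorescent protein, and all groups carry it. PS19 lysate came from brains of adult male mice that express human P301S tau (1N4R isoform) under the prion promoter Prnp, and control lysate from brains of their wildtype littermates, and cells were exposed to either for a day. The remaining 5 libraries are from Biosensor cells given 0.3 µM thapsigargin, a blocker of the calcium pump of the endoplasmic reticulum (ER), and serve here only as a scale. The tagged repeat domain, expressed at low levels according to the study, makes the line a reporter of seeding and not a model of a neuron. The share of cells that held aggregates was not measured in these libraries.

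A cell that senses low sterol in the ER membrane releases the transcription factor SREBP2, which raises the genes of cholesterol synthesis and uptake, and INSIG1 and INSIG2 hold SREBP2 back when sterol is plentiful. The unfolded protein response starts from the ER sensors PERK, IRE1 and ATF6, and PERK leads to translation of ATF4, which raises genes of amino acid synthesis and transport. Immediate early genes such as FOS, EGR1 and ATF3 are transcribed within minutes of a growth or stress signal, and their mRNAs are short-lived.

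The libraries of the 2 groups were close to each other. Across genes, log2 values correlated at 0.9949 to 0.9979 among PS19 libraries, 0.9907 to 0.9972 among control libraries and 0.9926 to 0.9969 between the groups. FPKM values summed to 523601 to 547043 in PS19 libraries and 506146 to 552511 in control libraries, and the depth behind them is unknown here, since the values hold no read counts. The control libraries stood apart from one another more than the PS19 libraries did. On the principal component that held 40.4% of the variance, control libraries 1 and 2 lay at -12.4 and -10.2, control libraries 4 and 5 at 13.9 and 15.4, and the PS19 libraries between -6.01 and 3.17. The labels do not say that libraries of a group came from separate cultures, and the methods call them independent replicates, so a p-value here sets a difference against the spread of these libraries, part or all of which may be technical. Neither the labels nor the methods say how many brains or lysate preparations stand behind a group. Differences between brains or preparations may therefore lie outside that spread.

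Cells given PS19 lysate differed little from cells given control lysate. Of the 11786 genes tested, 5 passed the test (0.0424%). Of these, 2 were higher (0.0170%) and 3 were lower (0.0255%) in PS19 libraries at an adjusted p under 0.1 from limma (Benjamini-Hochberg adjustment over all genes tested), which is the false discovery rate of the study's methods. The genes that rose were INSIG1 and IDI1, both of the sterol pathway, and the genes that fell were SLC3A2, an amino acid transporter chain, EMILIN2, an extracellular matrix glycoprotein, and ATF3, a stress-induced transcription factor. Between the thapsigargin libraries and the same control libraries, 8191 genes differed (69.5%). The labels do not say whether the thapsigargin cells also received lysate or how long they were exposed. Differences from the control libraries may therefore hold more than the effect of the drug, here and below. The median log2 fold change over all genes tested was -0.015 for PS19 against control, and 76.3% of genes lay within 0.1 of 0. Fold changes are differences of mean log2(FPKM + 0.5) throughout, a scale that understates the change of weakly expressed genes.

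The comparison was precise enough to bound most genes. The 95% confidence interval of the log2 fold change reached a median of 0.153 to either side, and for 11629 genes (98.7%) it lay entirely between -0.5 and 0.5. The groups did not overlap, every PS19 library being above every control library, for 50 genes (0.424%), and were apart in the other direction for 68 genes (0.577%). At an unadjusted p under 0.05, 291 genes were higher (2.47%) and 415 lower (3.52%). Shares near these arise without any difference between groups, so neither groups apart nor an unadjusted p by itself marks a gene as changed. In bulk RNA a lower level in each cell and fewer cells expressing the gene cannot be told apart, so each difference is an average over cells with and without aggregates.

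**Figure D1:**
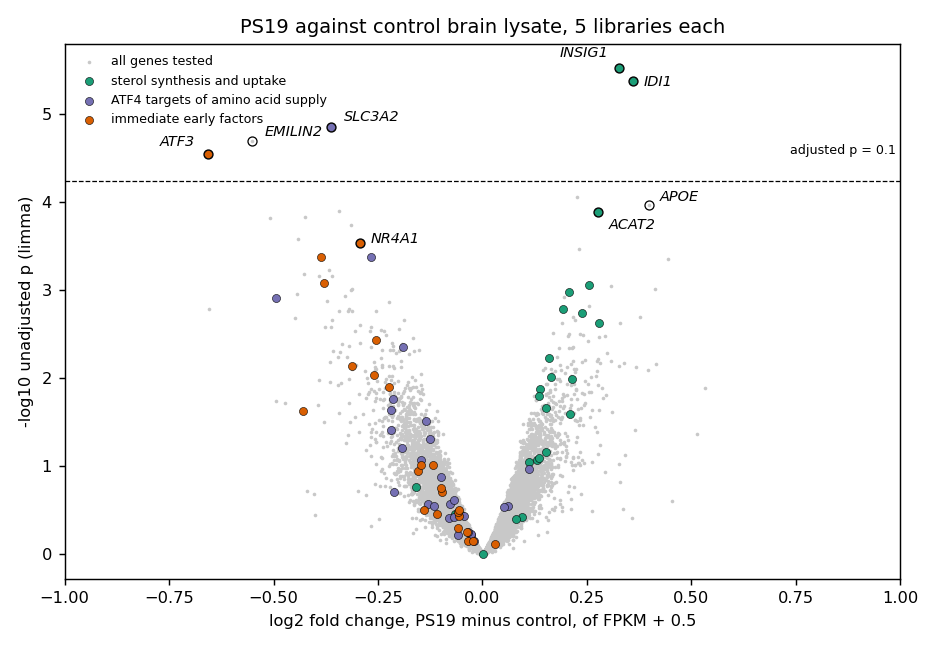
Each point is a gene, with its log2 fold change (PS19 minus control, of FPKM + 0.5) on the horizontal axis and -log10 of the unadjusted p from limma on the vertical axis, for 5 PS19 and 5 control libraries. Points above the dashed line are the 5 genes with an adjusted p under 0.1, sterol genes lie mostly to the right, and ATF4 targets and immediate early factors mostly to the left. SULT1A3 and SULT1A4 lie beyond the plotted range.

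INSIG1 (gene ID 3638, chromosome 7), the ER membrane protein that retains the sterol sensor complex, had the smallest p-value of all genes tested. It was at 41.0, 40.9, 38.9, 39.9 and 38.4 FPKM in PS19 libraries 1 to 5, against 31.1, 30.0, 32.8, 32.6 and 31.7 FPKM in control libraries 1 to 5. The groups were well apart, since the lowest PS19 library exceeded the highest control library by more than the whole range of either group. INSIG1 averaged 39.8 ± 1.18 FPKM in PS19 cells and 31.6 ± 1.11 FPKM in control cells (SD, n = 5 each), a log2 fold change of 0.33 (SE 0.046, adjusted p = 0.0247 from limma). IDI1 (gene ID 3422, chromosome 10), which isomerizes isopentenyl diphosphate in the mevalonate pathway, was at 44.75, 43.97, 45.87, 43.44 and 41.81 FPKM in PS19 libraries, against 32.48, 32.18, 37.47, 35.3 and 33.4 FPKM in control libraries. Here too the groups did not overlap. IDI1 averaged 43.97 ± 1.51 FPKM in PS19 cells and 34.2 ± 2.21 FPKM in control cells (SD, n = 5 each), a log2 fold change of 0.36 (SE 0.053, adjusted p = 0.0247 from limma).

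The direction of INSIG1 and IDI1 held in every setting run, with log2 fold changes of 0.29 to 0.35 for INSIG1 and 0.31 to 0.39 for IDI1. Since the groups were apart for both genes, leaving out libraries could not have reversed their direction. Their calls ended without PS19 library 1 (adjusted p = 0.138 from limma for both genes), without PS19 library 2 (0.121 for both) and without PS19 library 3 (0.106 for INSIG1 and 0.116 for IDI1). Without any 1 of these libraries no gene at all passed in limma, and up to 256 genes were higher and up to 405 lower at an unadjusted p under 0.05. They ended too after rescaling to TPM, at an adjusted p of 0.11 from limma, and with the thapsigargin libraries in the fit, at 0.9998. In the comparison of thapsigargin with the same control libraries, the log2 fold change was -0.88 for INSIG1 (adjusted p = 0.000542 from limma) and -0.16 for IDI1 (adjusted p = 0.283).

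**Figure D2:**
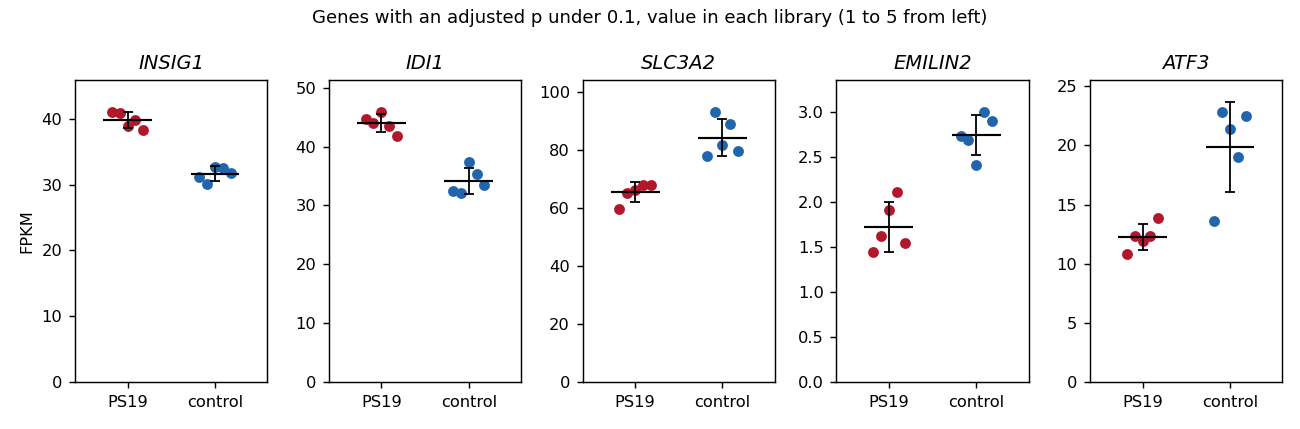
FPKM of the 5 genes with an adjusted p under 0.1 in PS19 libraries (red, left) and control libraries (blue, right), each point a library, with the mean (line) and SD (bar) of 5 libraries. INSIG1 and IDI1 were higher in all 5 PS19 libraries than in any control library, SLC3A2 and EMILIN2 were lower in all 5, and for ATF3 control library 1 lay among the PS19 libraries.

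Most sterol genes were shifted in the same direction as INSIG1 and IDI1. A list of SREBP2 targets had 25 tested genes, and INSIG1 and IDI1 are counted among them throughout. Of the 25 genes, 22 had a log2 fold change above 0. The median was 0.15, beside -0.015 and 42.7% above 0 over all genes tested. INSIG1 and IDI1 were the 2 that rose at an adjusted p under 0.1 (0.0170% of all genes did) and none fell. In 9 of the 25 genes every PS19 library was above every control library (0.424% of all genes), and 15 of the 25 had an unadjusted p under 0.05 in the higher direction (2.47% of all genes). The median of the list relative to the control mean was 0.145 to 0.172 in the PS19 libraries and -0.029 to 0.038 in the control libraries, so that the libraries of the groups did not overlap in it. Genes of 1 pathway are not independent of each other, and these counts describe the list without testing it.

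Genes with groups apart stood at the opening, in the middle and near the end of the pathway. ACAT2 (acetoacetyl-CoA thiolase) was at 52.87, 55.09, 53.86, 51.58 and 53.97 FPKM in PS19 libraries, against 45.78, 45.79, 48.02, 39.99 and 41.06 FPKM in control libraries. The lowest PS19 library lay above the highest control library, and the log2 fold change of 0.28 (SE 0.055) missed the threshold with an adjusted p of 0.163 from limma. HMGCS1, which makes HMG-CoA, was at 13.01 to 14.31 FPKM in PS19 libraries, against 10.1 to 12.3 FPKM in control libraries (log2 fold change 0.24, adjusted p = 0.49 from limma).

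The genes from mevalonate to squalene described here all had log2 fold changes above 0. PMVK, phosphomevalonate kinase, was at 16.5 to 18.1 FPKM in PS19 libraries, against 12.18 to 15.02 FPKM in control libraries (log2 fold change 0.26, adjusted p = 0.413 from limma). MVK and MVD, the kinase before it and the decarboxylase after it, had log2 fold changes of 0.21 and 0.13 with groups that overlapped. FDPS and FDFT1, which build farnesyl diphosphate and squalene, had log2 fold changes of 0.14 and 0.13, and the groups were apart for FDFT1 (91.3 to 102.7 FPKM in PS19 libraries, against 82.8 to 90.8 FPKM in control libraries).

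For both enzymes that turn squalene into the sterol rings, every PS19 library was above every control library. SQLE, squalene epoxidase, was at 60.4, 59.2, 53.5, 55.0 and 51.4 FPKM in PS19 libraries, against 48.6, 48.7, 49.2, 48.7 and 48.4 FPKM in control libraries. Control libraries were nearly level for this gene while PS19 libraries were spread. LSS, lanosterol synthase, was at 26.5 to 29.8 FPKM in PS19 libraries, against 23.9 to 25.9 FPKM in control libraries. The log2 fold changes were 0.19 for SQLE and 0.21 for LSS, with adjusted p-values of 0.475 and 0.429 from limma.

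Among the later enzymes, NSDHL (log2 fold change 0.15) had groups that were apart, at 48.09 to 51.7 FPKM in PS19 libraries, against 38.19 to 48.03 FPKM in control libraries. EBP (0.28), HSD17B7 (0.21) and DHCR7 (0.17) overlapped slightly between the groups. CYP51A1 (0.080), TM7SF2 (0.14) and MSMO1 (0.11) overlapped more widely, and SC5D, the sterol desaturase, was at -0.066. None of these genes passed over all genes tested, with the adjusted p of EBP at 0.53 from limma.

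Apart from INSIG1, the transport and regulator genes described here were near or below 0. STARD4, a sterol carrier, had a log2 fold change of 0.0019. INSIG2, the second retention protein and less dependent on SREBP2 than INSIG1, was at 2.95 ± 0.67 FPKM in PS19 cells and 3.296 ± 0.114 FPKM in control cells (SD, n = 5 each). SREBF2, the gene of SREBP2 itself, was at 33.9 ± 1.203 FPKM in PS19 cells and 35.2 ± 2.19 FPKM in control cells. Neither passed the test, with adjusted p-values of 0.864 and 0.884 from limma.

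**Figure D3:**
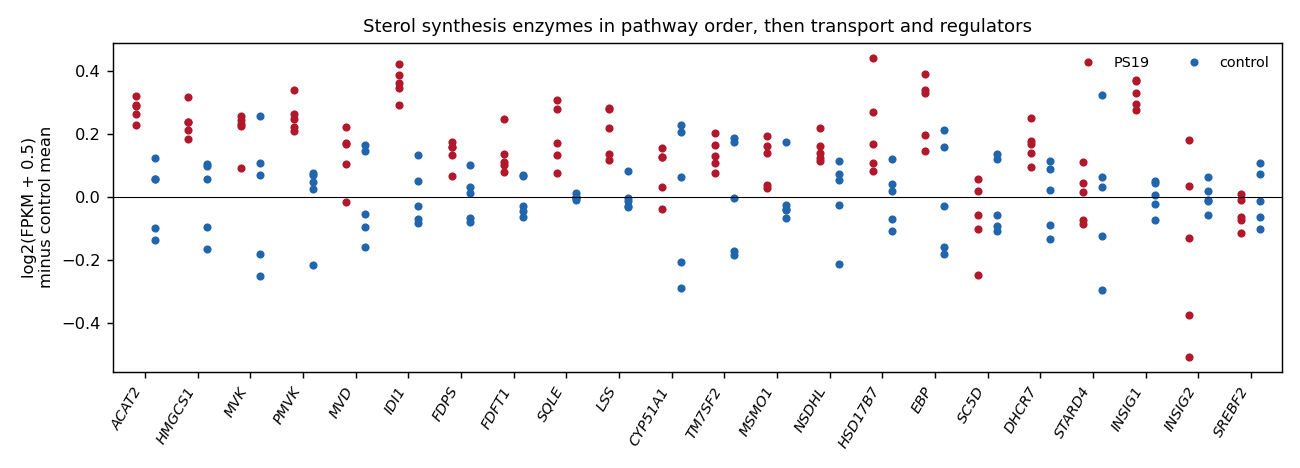
Log2(FPKM + 0.5) of 22 sterol genes in each library, minus the mean of the 5 control libraries, with PS19 libraries in red left of control libraries in blue. The genes run in pathway order and end with transport and regulators, and the red points lie above all blue points for 9 genes, among them ACAT2, IDI1, SQLE and INSIG1.

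The number of sterol genes called varied widely with the libraries and the scaling. Without control libraries 1 and 2, 16 of the 25 genes rose at an adjusted p under 0.1 from limma, but 876 genes (7.43%) then rose and 1573 (13.3%) fell over all genes tested. Without control libraries 4 and 5, it was 2 of the 25 genes (over all genes tested, 2 rose and 2 fell, 0.017% each). It was 0 of the 25 on the TPM scale and when PS19 library 1, 2 or 3 was left out. The median of the list was 0.126 to 0.18 over all settings. The thapsigargin libraries had a median of -0.092 for the list against the same control libraries, with 8 genes higher (25.4% of all genes) and 10 lower (44.1% of all genes).

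Other genes of lipid carriage and storage were near the threshold or well short of it. APOE (gene ID 348, chromosome 19), the lipoprotein that carries cholesterol between brain cells, was at 11.49, 11.27, 11.11, 10.96 and 10.34 FPKM in PS19 libraries, against 9.77, 9.15, 7.70, 7.14 and 7.76 FPKM in control libraries. Every PS19 library was above every control library, and control libraries 1 and 2 were the highest of their group. The log2 fold change of 0.40 (SE 0.078, adjusted p = 0.163 from limma) placed APOE just outside the threshold, and it passed without control library 1 (adjusted p = 0.0264 from limma) or with the correction for GC content, length and level (0.0226). Also just outside was ADI1, an enzyme of methionine salvage (0.23, adjusted p = 0.163 from limma). Just inside it were ATF3 (adjusted p = 0.0662) and EMILIN2 (adjusted p = 0.0602), both from limma and both lower.

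NPC2, the lysosomal protein that hands cholesterol on, was at 84.4 to 94.4 FPKM in PS19 libraries, against 72.2 to 81.2 FPKM in control libraries. Its groups did not overlap, and its log2 fold change was 0.23 (adjusted p = 0.27 from limma). PLPP4 and PLPP5, phosphatases of phospholipid metabolites, went opposite ways without passing: PLPP4 was at 1.66 to 2.0 FPKM in PS19 libraries, against 1.30 to 1.43 FPKM in control libraries, and PLPP5 at 6.07 to 8.02 FPKM in PS19 libraries, against 8.25 to 11.3 FPKM in control libraries. The list of fatty acid and triglyceride synthesis, which SREBP1 largely serves, had a median of 0.025 over 23 tested genes, and none passed. At an unadjusted p under 0.05, 2 were higher (2.47% of all genes). SCD, the stearoyl-CoA desaturase, and ACSL3, an acyl-CoA synthetase, had the smallest p-values of that list, with log2 fold changes of 0.14 and 0.13 (adjusted p = 0.816 and 0.82 from limma).

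Genes of amino acid supply that ATF4 drives were lower by a small amount. Of 28 tested genes, 25 had a log2 fold change below 0, the median was -0.11, and SLC3A2 was the only one that fell at an adjusted p under 0.1 (0.0255% of all genes did). It was also the only member whose groups did not overlap (0.577% of all genes), and 9 members had an unadjusted p under 0.05 in the lower direction (3.52% of all genes). The median of the list relative to the control mean was -0.134 to -0.057 in PS19 libraries and -0.104 to 0.064 in control libraries, with control library 1 at the low end among the PS19 libraries.

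SLC3A2 (gene ID 6520, chromosome 11), the heavy chain that carries several amino acid exchangers to the cell surface, was at 59.6, 65.4, 66.4, 67.9 and 68.0 FPKM in PS19 libraries, against 77.9, 93.2, 81.9, 89.1 and 79.9 FPKM in control libraries. All PS19 libraries lay below all control libraries, and the log2 fold change was -0.36 (SE 0.059, adjusted p = 0.0546 from limma). The call held without control library 1 (adjusted p = 0.0264 from limma) or 5 (0.0487) and ended without any of the other 8 libraries, at 0.103 without PS19 library 4 to 0.247 without PS19 library 1. SLC7A5, the light chain that pairs with SLC3A2 to carry large neutral amino acids, was at 65.1 to 74.4 FPKM in PS19 libraries, against 72.7 to 85.0 FPKM in control libraries. These groups overlapped, and the log2 fold change of -0.19 did not pass (adjusted p = 0.623 from limma).

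CHAC1, which degrades glutathione, was at 2.93, 3.80, 3.76, 3.92 and 4.50 FPKM in PS19 libraries, against 3.87, 6.58, 5.03, 5.95 and 6.45 FPKM in control libraries. Control library 1 lay among the PS19 libraries, and the log2 fold change was -0.49 (SE 0.13, adjusted p = 0.436 from limma). ASNS, asparagine synthetase, showed the same arrangement, with control library 1 at 60.6 FPKM among the PS19 libraries (54.2 to 60.9 FPKM) and the other control libraries at 68.5 to 76.2 FPKM. Its log2 fold change was -0.27 (adjusted p = 0.29 from limma), and without control library 1 both ASNS (-0.31, adjusted p = 0.0447 from limma) and CHAC1 (-0.61, adjusted p = 0.0312) passed. With thapsigargin, SLC3A2 and ASNS rose by 1.02 and 1.48 on the log2 scale, and 23 of the 28 genes of the list rose, against 25.4% of all genes tested.

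The C/EBP-ATF response element, where ATF4 binds as a dimer, is shown because its letters stood in promoter windows of several of these genes. Windows came from RefSeq (GRCh38.p14) and reached from 250 bases before to 50 bases after the start. TGATGNAAN, searched on both strands, stood in 5 of the 23 windows found for the list (21.7%), against 1.51% of the 9690 windows of tested genes and 3.67% of all 27305 windows. The 5 genes were ASNS, CHAC1, SLC3A2, SLC7A1 and SLC38A1, and the stretches below run 5′ to 3′ on the strand of the gene, with the letters in capitals. They lie at chr7:97872458-97872486 (minus strand), chr15:40953251-40953279 (plus), chr11:62881725-62881748 (plus), chr13:29595663-29595691 (minus) and chr12:46266502-46266530 (minus), and begin the letters at positions -68, -210, 37, 8 and -4 from the start. In CHAC1 and SLC3A2 the letters are read on the opposite strand.
ASNS: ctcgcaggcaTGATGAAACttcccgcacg
CHAC1: ctcccctgccGTTGCATCActcctgccag
SLC3A2: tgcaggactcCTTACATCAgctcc
SLC7A1: ggcgcactgcTGATGAAACctggcgccgg
SLC38A1: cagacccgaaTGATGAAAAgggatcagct

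The whole 250 bases before the start of ASNS (chr7:97872409-97872658, minus strand) show where the element sits in a promoter without other matches to the letters.
ASNS: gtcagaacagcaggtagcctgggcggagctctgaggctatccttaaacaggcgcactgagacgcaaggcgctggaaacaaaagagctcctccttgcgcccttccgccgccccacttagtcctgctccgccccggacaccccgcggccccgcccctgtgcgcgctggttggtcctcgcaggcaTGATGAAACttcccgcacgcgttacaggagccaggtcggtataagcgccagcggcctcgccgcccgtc

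Of the 5 genes, SLC7A1, the cationic amino acid transporter, had an adjusted p of 0.778 from limma at a log2 fold change of -0.21, and SLC38A1, a neutral amino acid transporter, of -0.19 (adjusted p = 0.831 from limma). The letters are a description of the windows and no evidence of binding. In the 19 windows found for the sterol genes, the letters TCACNCCAC of a sterol response element stood in 1, that of SREBF2 (5.26%, against 0.98% of windows of tested genes). The same letters stood in 1 of 20 windows of the immediate early factors (5%) and 1 of 23 of the ATF4 list (4.35%). With 1 window in each list, these counts are too small to compare the lists. TGACGTCA (the cyclic AMP element) and TGANTCA (the AP-1 element) each stood in 1 of 20 windows of the immediate early factors, JUND for TGACGTCA and FOSL2 for TGANTCA. In the tested genes they stood in 3.44% and 3.79% of windows. TGANTCA also stood in 3 of the 23 windows of the ATF4 list (13%), and TGATGNAAN in 1 of the 20 of the immediate early factors, that of ATF3 (5%).

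Immediate early transcription factors were lower in PS19 libraries, again by small amounts. Of 24 tested genes, 23 had a log2 fold change below 0, and the median was -0.13. ATF3 was the only one that fell at an adjusted p under 0.1 (0.0255% of all genes). FOSB, JUNB, EGR1 and NR4A1 had groups that did not overlap (0.577% of all genes), and 9 had an unadjusted p under 0.05 in the lower direction (3.52% of all genes). The median relative to the control mean was -0.224 to -0.071 in PS19 libraries and -0.064 to 0.137 in control libraries. ATF3 also stands on the study's PERK and IRE1 lists.

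ATF3 (gene ID 467, chromosome 1) was at 10.8, 12.4, 11.9, 12.3 and 13.8 FPKM in PS19 libraries, against 13.6, 22.8, 21.4, 19.0 and 22.5 FPKM in control libraries. Control library 1 was the one that overlapped the PS19 libraries. The log2 fold change of -0.66 (SE 0.11) was the largest of the genes called, with an adjusted p of 0.0662 from limma. Its call held only without control library 1 (-0.78, adjusted p = 8.53e-05 from limma), and leaving out any other single library ended it, at an adjusted p of 0.118 without PS19 library 5 to 0.266 without PS19 library 1.

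NR4A1, an orphan nuclear receptor, was at 8.48, 8.51, 8.95, 8.37 and 9.81 FPKM in PS19 libraries, against 10.7, 12.1, 10.5, 10.4 and 10.9 FPKM in control libraries. The groups were apart, and the log2 fold change was -0.29 (SE 0.063, adjusted p = 0.242 from limma). FOSB and EGR1 were expressed weakly. FOSB, an AP-1 subunit, was at 0.99 to 1.24 FPKM in PS19 libraries, against 1.30 to 1.76 FPKM in control libraries (log2 fold change -0.39, adjusted p = 0.29 from limma), and EGR1, a zinc finger factor, at 1.92 to 2.68 FPKM in PS19 libraries, against 2.72 to 3.45 FPKM in control libraries (-0.38, adjusted p = 0.413 from limma).

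FOS, whose fold change was the second lowest of the list (-0.43), was at 1.55 ± 0.355 FPKM in PS19 cells and 2.33 ± 0.836 FPKM in control cells (SD, n = 5 each). JUN, its partner in AP-1, was at 56.9 to 73.5 FPKM in PS19 libraries, against 66.3 to 96.6 FPKM in control libraries (log2 fold change -0.26, adjusted p = 0.732 from limma). MYC (-0.097), SRF (-0.056) and IER2 (-0.035) overlapped widely between the groups. CSRNP1, an AXIN1-induced nuclear protein outside the list, was at 2.63 to 3.25 FPKM in PS19 libraries, against 3.34 to 4.32 FPKM in control libraries (-0.36, adjusted p = 0.372 from limma).

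**Figure D4:**
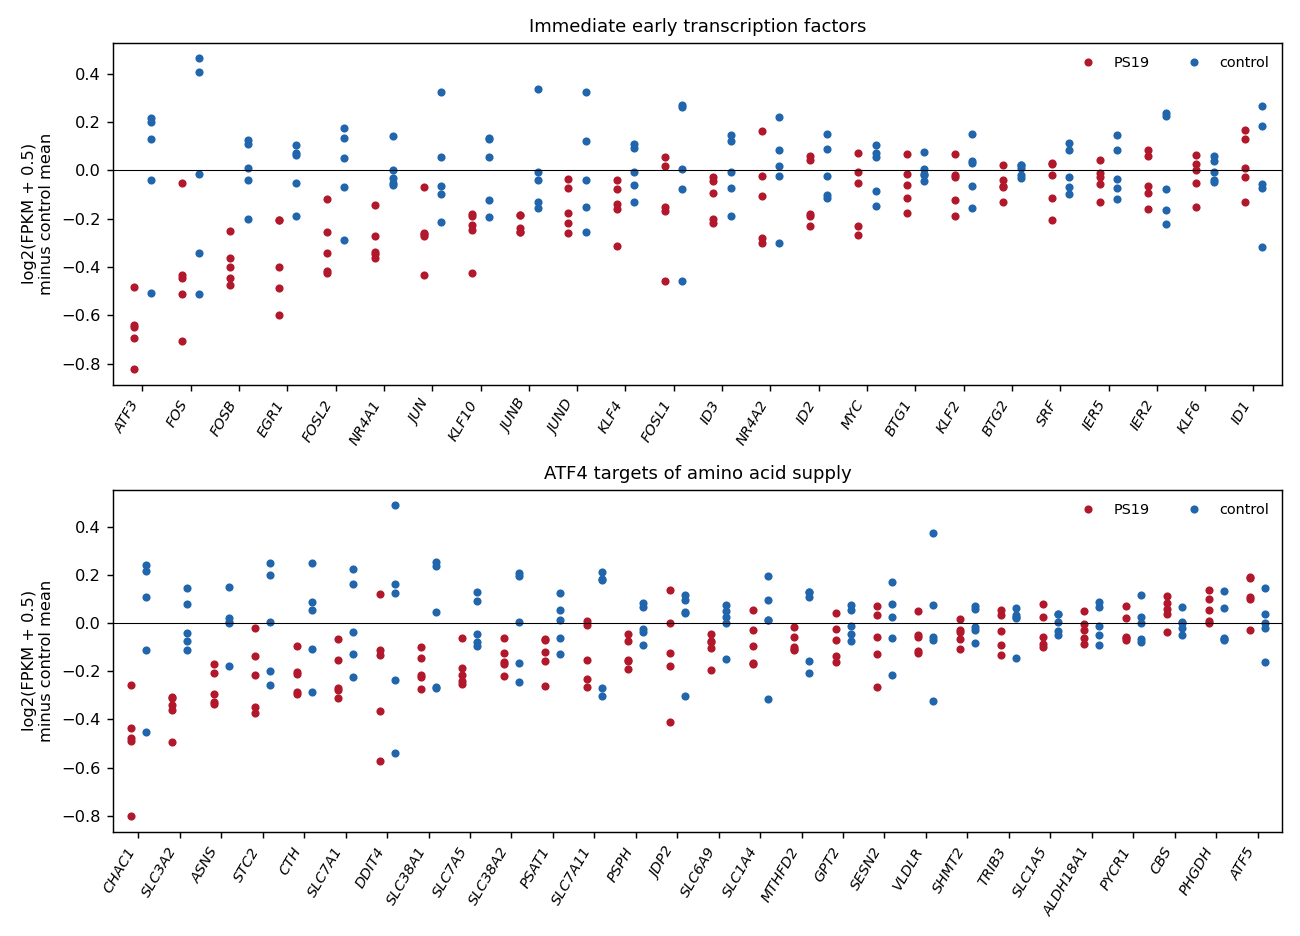
Log2(FPKM + 0.5) of each immediate early transcription factor (top) and each ATF4 target of amino acid supply (bottom) in each library, minus the mean of the 5 control libraries, with PS19 libraries in red left of control libraries in blue and genes ordered by fold change. The red points lie mostly below 0, and a single low blue point (control library 1) reaches them for ATF3, CHAC1 and ASNS.

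EMILIN2 (gene ID 84034, chromosome 18) belongs to no list. It was at 1.44, 1.62, 1.91, 2.11 and 1.54 FPKM in PS19 libraries, against 2.73, 2.69, 2.41, 3.0 and 2.9 FPKM in control libraries. The groups were apart, and the log2 fold change was -0.55 (SE 0.092, adjusted p = 0.0602 from limma). At this low level the pseudocount matters: the log2 fold change was -0.65 with a pseudocount of 0.1 and -0.46 with 1, and EMILIN2 passed under both. The call held without PS19 library 4 (adjusted p = 0.0695 from limma), control library 1 (0.0492) or control library 3 (0.0998), and ended without PS19 library 1 (0.258), 2 (0.165), 3 (0.116) or 5 (0.243) or control library 2 (0.142), 4 (0.149) or 5 (0.162).

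Further genes outside the lists were apart between the groups without passing. SH2D3C, an adaptor of integrin signaling, was at 0.74 to 1.08 FPKM in PS19 libraries, against 1.23 to 1.95 FPKM in control libraries (log2 fold change -0.51, adjusted p = 0.163 from limma). ZCCHC12, a zinc finger coactivator, was at 8.37 to 9.01 FPKM in PS19 libraries, against 9.91 to 12 FPKM in control libraries (-0.32, adjusted p = 0.177 from limma). CLTRN (-0.44), TMEM59L (-0.31) and SUSD4 (-0.31) were lower, and RHBDL1 (0.45), RRP36 (0.19) and AMH (0.25) higher, in every PS19 library than in any control library, with adjusted p-values from limma of 0.24 for CLTRN to 0.475 for AMH. MSANTD3-TMEFF1 (-0.37) is a readthrough transcript of neighbouring genes, and its reads may be split with theirs.

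Genes of hypoxia and glycolysis had a median of -0.13 over 33 tested genes, with 23 below 0, close to that of the immediate early factors. None passed, none had groups apart, and 11 had an unadjusted p under 0.05 in the lower direction (3.52% of all genes). VEGFA, the angiogenic factor, was at 19.6 to 23.1 FPKM in PS19 libraries, against 22.3 to 31.5 FPKM in control libraries. ANKRD37, a small target of the hypoxia factor HIF, was at 1.05 to 1.58 FPKM in PS19 libraries, against 1.46 to 2.11 FPKM in control libraries, and BNIP3, a mitophagy receptor, at 40.4 to 48.1 FPKM in PS19 libraries, against 48.0 to 58.5 FPKM in control libraries. Their log2 fold changes were -0.32, -0.43 and -0.22 (adjusted p = 0.475, 0.372 and 0.623 from limma). The list median relative to the control mean was -0.136 to -0.085 in PS19 libraries and -0.075 to 0.145 in control libraries. Control libraries 1 and 4 lay close to the PS19 libraries, at -0.075 each, and control library 5 was the highest.

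Genes of YAP and TEAD, and of NF-kappaB, were lower in part. Of 16 tested YAP and TEAD targets 14 were below 0, with a median of -0.11 that was -0.020 without control libraries 4 and 5. CYR61, a matricellular protein, was at 5.82 to 6.28 FPKM in PS19 libraries, against 6.98 to 7.68 FPKM in control libraries (log2 fold change -0.22, adjusted p = 0.453 from limma). Of 15 tested NF-kappaB subunits and targets 11 were below 0 (6749 of 11786 over all genes), with a median of -0.073. RELB, IL32 and BCL3 had the smallest p-values (-0.37, -0.45 and -0.35, adjusted p = 0.453, 0.514 and 0.68 from limma). They were weakly expressed, averaging 0.95, 0.88 and 1.59 FPKM in PS19 cells, against 1.38, 1.37 and 2.18 FPKM in control cells. The groups overlapped for IL32 and BCL3. Interferon-stimulated genes had a median of 0.0068 over 20 tested genes.

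The ER stress response, which thapsigargin raised strongly, was at or slightly below the control level in PS19 cells. ER chaperones and folding enzymes had a median of -0.032 over 27 tested genes, against 1.19 with thapsigargin, where 25 of them rose (25.4% of all genes). None passed with PS19 lysate from limma. At an unadjusted p under 0.05, 1 was higher (2.47% of all genes) and 1 lower (3.52% of all genes). For 26 of the 27 the 95% confidence interval with PS19 lay between -0.5 and 0.5. HSPA5 (BiP), the main ER chaperone, was at 126.9 to 148.0 FPKM in PS19 libraries, against 122.2 to 163.1 FPKM in control libraries, and HSP90B1 (GRP94) at 221.4 to 240.9 FPKM in PS19 libraries, against 224.2 to 262.8 FPKM in control libraries. Their log2 fold changes were -0.063 and -0.085 (adjusted p = 0.891 and 0.854 from limma).

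Of the study's own lists, the ATF6 and ERAD genes had medians of -0.031 over 73 and -0.029 over 69 tested genes, with none called by limma. At an unadjusted p under 0.05, 1 ATF6 gene was higher and 2 lower, and 3 ERAD genes were higher and 3 lower. Over all genes it was 2.47% higher and 3.52% lower. The PERK and IRE1 lists, which the study examined in these same libraries, had medians of -0.081 and -0.12 over 31 tested genes each, with 26 and 31 of them below 0. Of these genes 1 and 2 were called lower by limma (0.0255% of all genes), and 10 and 8 were lower at an unadjusted p under 0.05 (3.52% of all genes). The genes called were ATF3 on both lists and SLC3A2 on the IRE1 list, the same genes called on the immediate early and ATF4 lists. ATF3, DNAJB9, DDIT3, GADD45A and NFKB2 were counted on both lists at an unadjusted p under 0.05. Relative to the control mean, the PERK list median was -0.108 to -0.067 in PS19 libraries and -0.126 to 0.087 in control libraries. The IRE1 list median was -0.147 to -0.083 in PS19 libraries and -0.180 to 0.088 in control libraries. In both lists control library 1 lay below every PS19 library, so the groups overlapped. Lists examined on these libraries are not independent evidence of their direction. The genes of the sensors, EIF2AK3 (0.0086), ERN1 (-0.15) and ATF6 (-0.11), and of the factors ATF4 (-0.013), XBP1 (-0.076) and DDIT3 (-0.30) did not pass (adjusted p of 0.82 or more from limma for each), and the sign of EIF2AK3, ATF4 and ATF6 changed under other settings. DNAJB9, an ER co-chaperone, had the lowest value of the ERAD list (-0.30, adjusted p = 0.686 from limma), and UBXN6, a VCP cofactor, the highest (0.19, adjusted p = 0.686 from limma).

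Chaperones and degradation in the cytosol were close to the control level. The list of HSF1 targets had a median of 0.015 over 23 tested genes, whose lowest p-value belonged to HSPA1B (HSP70) at 531.7 ± 57.3 FPKM in PS19 cells and 598.1 ± 49.98 FPKM in control cells (SD, n = 5 each). Reads of HSPA1B can be shared with the near-identical HSPA1A. Proteasome subunits had a median of 0.035 over 31 tested genes, with 26 above 0, and PSMC1, an ATPase of its base, had an adjusted p of 0.82 from limma at a log2 fold change of 0.11. STUB1 (CHIP), a ubiquitin ligase that acts on chaperone clients including tau, was at 111.9 to 121.8 FPKM in PS19 libraries, against 94.2 to 113.8 FPKM in control libraries (0.15, adjusted p = 0.749 from limma). Autophagy and lysosome genes had a median of 0.0034 over 43 tested genes.

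The medians of ribosomal protein and respiratory chain genes were 0.044 over 75 and 0.054 over 56 tested genes, with 62 and 50 above 0 and none called by limma. Of these genes, 0 and 1 were higher at an unadjusted p under 0.05 (2.47% of all genes), and none was lower. Without control libraries 4 and 5 the medians were -0.056 and -0.024. Relative to the control mean, the ribosomal list lay at -0.180 and -0.116 in control libraries 4 and 5, at 0.099 to 0.117 in control libraries 1 to 3, and at -0.080 to 0.099 in PS19 libraries.

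Of 10 tested genes of metallothioneins and metal response 3, and of 12 tested histone genes 1, were higher at an unadjusted p under 0.05 (2.47% of all genes), and limma called none. FTH1, the ferritin heavy chain, was at 783.7 to 898.1 FPKM in PS19 libraries, against 693.1 to 750.0 FPKM in control libraries, with groups apart (log2 fold change 0.22, adjusted p = 0.514 from limma). FTL, the light chain, overlapped (0.16, adjusted p = 0.81 from limma). HIST1H4C, a replication-dependent histone whose mRNA is found poorly by poly(A) selection, was at 18.7 to 24.9 FPKM in PS19 libraries, against 13.0 to 19.7 FPKM in control libraries (0.41, adjusted p = 0.413 from limma). DNA replication genes (median 0.015 over 40) and G2/M genes (0.012 over 39) had no gene called by limma. At an unadjusted p under 0.05, 1 replication gene was higher (2.47% of all genes), 1 was lower (3.52% of all genes), and no G2/M gene was either.

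**Figure D5:**
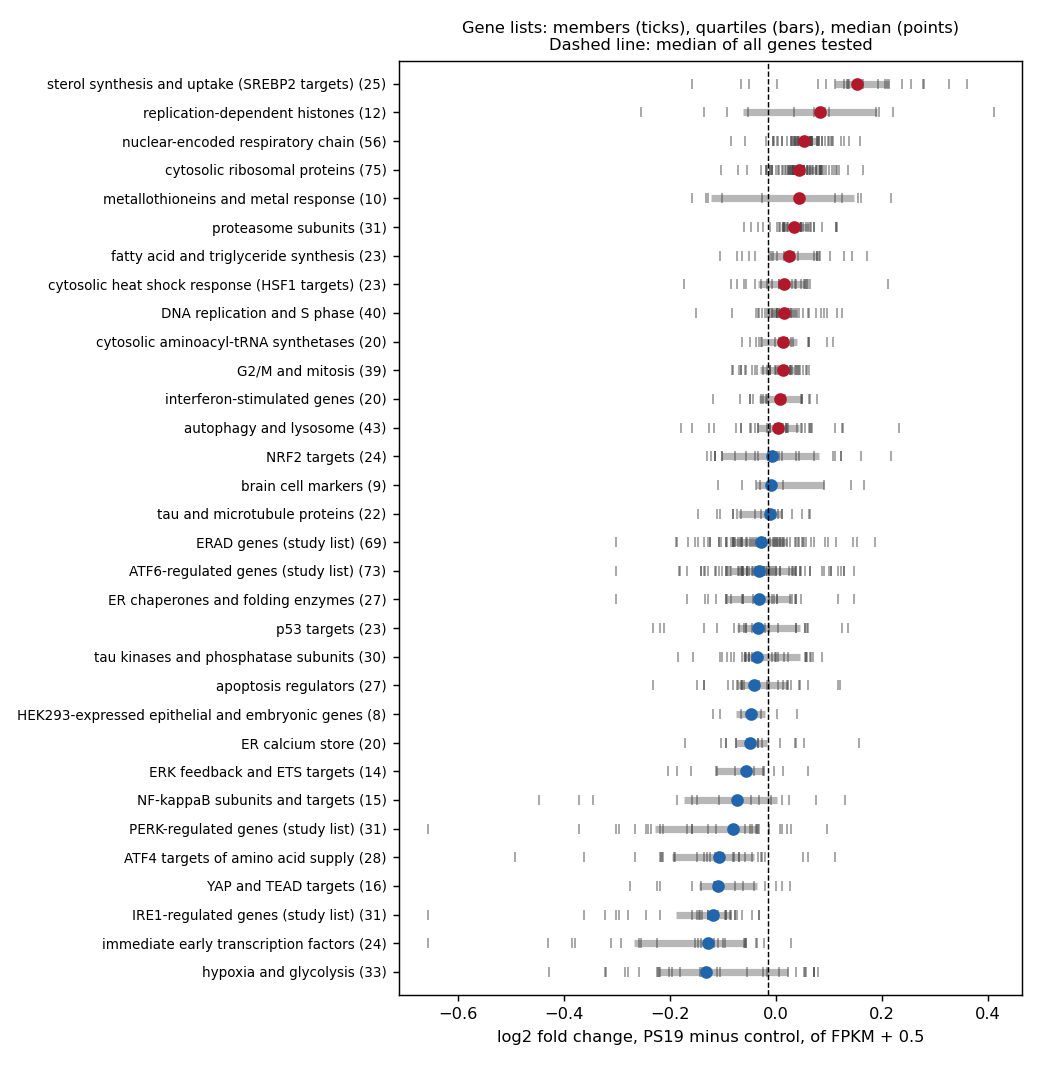
Log2 fold changes (PS19 minus control, of FPKM + 0.5) of the members of 32 gene lists, with a tick for each gene, a bar from the lower to the upper quartile, a point for the median (red above 0, blue below) and the number of genes tested in parentheses. The sterol list had the highest median, at 0.15, and the hypoxia and immediate early lists were lowest, both at -0.13, and the dashed line marks the median of all genes tested, -0.015.

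The tau gene and the brain markers were examined, since the lysates come from brain and the line carries a tau transgene. The lysates are from mouse and reads were mapped to the human reference, so RNA carried over from the lysate may be missed and was not tested. MAPT, the tau gene, was at 60.4, 58.4, 82.1, 73.3 and 77.4 FPKM in PS19 libraries, against 61.8, 59.0, 80.2, 84.1 and 86.5 FPKM in control libraries. The groups overlapped fully, the log2 fold change was -0.074 (adjusted p = 0.919 from limma), and how many of these reads come from the transgene was not tested. Of 32 listed brain cell markers, 9 had a mean of at least 1 FPKM, and the 30 found in the tables summed to 138.0 to 154.6 FPKM in PS19 libraries and 136.2 to 166.5 FPKM in control libraries. The glial markers GFAP and AIF1 were each under 0.5 FPKM in every library, and C1QA was listed at 0 in all 10. Others on the list were well expressed in both groups, among them the neuronal NRGN (59.03 to 78.05 FPKM in PS19 libraries and 62.6 to 86.4 FPKM in control libraries) and the glial CNP (33.7 to 38.7 FPKM in PS19 libraries and 31.8 to 37.5 FPKM in control libraries) and SLC1A3 (13.1 to 15.3 FPKM in PS19 libraries and 13.5 to 15.3 FPKM in control libraries). Of 10 genes that HEK293 cells express, 8 had a mean of at least 1 FPKM, among them VIM at 494.9 to 533.8 FPKM in PS19 libraries and 475.2 to 573.3 FPKM in control libraries. Microtubule genes had a median of -0.012 over 22 tested genes, and tau kinases and phosphatase subunits of -0.035 over 30, with none called by limma. In each list 1 gene was lower at an unadjusted p under 0.05 (3.52% of all genes).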

How the data were processed

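The deposited values are FPKM for each gene in each library, which the authors made from filtered reads with HISAT2 2.0.4 (reference GRCh38.p12) and RSEM 1.2.12. No counts were in the values, so the authors' DESeq2 1.4.5 model was not fitted. Values were joined by gene ID, rows without a gene or with text in place of a value were left out, and 26 gene symbols turned into dates were restored. Log2(FPKM + 0.5) was compared for 11786 genes, those averaging 1 FPKM or more over the 10 libraries, with limma 3.58.1 in R 4.3.3 (mean-variance trend, two-sided, 5 against 5 libraries, Benjamini-Hochberg adjustment, threshold 0.1). The fit was tested on simulated data.

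The genes and the 32 gene lists (4 from the study) were chosen with earlier results of these data known. Genes were named by a rule: those called, up to 15 in each direction with groups apart and the smallest p-values, the 3 smallest p-values of each list, the sensors, their factors and MAPT, and those next to the threshold. Further members of the sterol list, and members of the ATF4 and immediate early lists, were added after their values were seen, as was the sterol element. Alternatives covered the pseudocount, filter, scaling, variance model, threshold, replicate number and each library left out. After seeing the data, fits without 2 control libraries and a correction for GC content, length and level were added. Loci without a gene name were not named, and some list members, though counted, are not reported here.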

Additional observations from a re-analysis of the deposited data

Results flagged for a closer look

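Among the 148 groups of 5 libraries of named genes, 7 held a library whose gap to the nearest other library was over 0.71 of the range of its group, where chance gives about 1 in 20. In PS19 cells, UBXN6 was at 33.63 FPKM in library 4 (others 29.36 to 30.37), BNIP3 at 40.42 FPKM in library 4 (others 45.92 to 48.11), GADD45B, a growth arrest gene, at 4.97 FPKM in library 1 (others 4.27 to 4.45) and CTSA, a lysosomal protease, at 32.6 FPKM in library 3 (others 36.26 to 36.68). In control cells, PMVK was at 12.18 FPKM in library 5 (others 14.48 to 15.02), LSS at 25.86 FPKM in library 4 (others 23.85 to 24.33) and TMEM59L at 10.3 FPKM in library 2 (others 7.77 to 8.24).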

How the results depend on the processing

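The counts of 2 genes called higher and 3 called lower by limma became 0 and 0 after rescaling to TPM (164 and 445 at an unadjusted p under 0.05) or with all 15 libraries in the fit (95 and 171), and 9 and 22 after the correction for GC content, length and level. They were 876 and 1573 without control libraries 1 and 2, and the cause was not tested. Genes called lower numbered 0 with no filter or at a threshold of 0.05, and 1 with median-ratio scaling or without the mean-variance trend. Leaving out each library in turn gave 0 to 3 higher and 0 to 10 lower. With the replicate number as a block (the replicate block fit), 6 were higher, APOE and ACAT2 among them, and 7 lower, CHAC1 and PLPP5 among them. Same-numbered PS19 and control libraries correlated at -0.207 to 0.328 in their deviations. PS19 libraries 1, 3 and 4 matched their own number best, and 2 and 5 did not. The labels give no pairing, so the numbers were not taken to pair the libraries. Of 1831 values of named genes under other settings, 1817 kept their direction. The log2 fold change of EIF2AK3 reversed to -0.012 after TPM, to -0.186 without control libraries 1 and 2, and lay between -0.068 and 0.060 with single libraries left out, and that of ATF4 reversed to 0.0065 after median-ratio scaling, to 0.059 without control libraries 1 and 2, and lay between -0.058 and 0.014. Without control libraries 4 and 5, ATF6 reversed to 0.041 and MAPT to 0.070. Depth is unknown, so weakly expressed genes carry a counting error that could not be given.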

Other observations

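SULT1A3 and SULT1A4, near-identical copies of a sulfotransferase gene, had the highest and the lowest fold change of all genes tested without passing. SULT1A3 was at 10.45, 10.48, 27.2, 28.61 and 18.18 FPKM in PS19 libraries, against 10.37, 2.8, 19.57, 0 and 4.71 FPKM in control libraries, and SULT1A4 at 17.77, 19.61, 0.03, 0.04 and 11.85 FPKM in PS19 libraries, against 17.93, 25.36, 3.52, 21.97 and 21.16 FPKM in control libraries. The values of SULT1A3 and SULT1A4 added up to 27.23 to 30.09 FPKM in PS19 libraries and 21.97 to 28.3 FPKM in control libraries, so each copy alone is uncertain while their sum varied little.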
